A study of Homo sapiens with 30 samples.

Results

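The question addressed here is how far the transcript response of U2OS cells to ionizing radiation differed when NFBD1 was depleted. NFBD1 is the protein of the gene MDC1. Of the 30 arrays in the study, the 24 arrays of its first experiment form 12 pairs, each an array of cells that received 5 Gy and an array of mock-irradiated cells (0 Gy) with the same shRNA treatment, the same replicate number and the same chip. The log2 intensity at 5 Gy minus that at 0 Gy was taken in each pair for every detected gene. The 6 differences from cells with an NFBD1 shRNA were then set against the 6 from cells without one. This difference of responses is called the NFBD1 difference: a negative value means that the response was lower with the NFBD1 shRNA.

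U2OS is a human osteosarcoma line. The cells without NFBD1 shRNA had been infected with a control retrovirus (pSIREN neg) or with a p53 shRNA retrovirus, and the cells with it carried the NFBD1 shRNA alone or the NFBD1 and p53 shRNAs together, with 3 pairs of each of these 4 kinds. The p53 shRNA was thus in 3 pairs of either arm. Irradiation from a caesium source, or the mock treatment, followed 2 days after infection, and total RNA was taken 4 h later. All NFBD1-depleted cells carried the same hairpin (hairpin b), all groups came from infected cultures of a single line, and every cell in the comparison had been through a retroviral infection. Nothing in the labels says that replicates were separate cultures, so p-values measure the spread between these samples, which may be technical. The log2 level of the cytokine IL6 shifted with replicate number in all 4 treatments. At 0 Gy it was 5.54 to 6 in replicate 3 and 7.22 to 8.82 in replicates 1 and 2. The labels do not name a source for this shift, and it was not tested.

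NFBD1 is a large adaptor that binds the phosphorylated form of histone H2AX on chromatin beside DNA double-strand breaks. There it holds the ATM kinase and the MRE11 complex and recruits the ubiquitin ligases RNF8 and RNF168, which in turn bring in 53BP1 and BRCA1. In irradiated cells ATM signalling stabilises p53, which turns on its target genes, and transcripts of the G2 and mitotic programme decline while the cell cycle is held. NFBD1 has been studied chiefly for its part in checkpoint arrest and repair.

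Arrays detected 34.1% to 40.3% of 48802 probes, and 12419 genes were kept. Detection by array changed from 0 to 5 Gy by between -2.4 and 2 percentage points in the pairs without NFBD1 shRNA and between -3.3 and 1.2 in those with it, so the arms overlapped. The arrays sat on 4 chips, each of which held pairs of both arms but only 3 of the 4 shRNA treatments, so the arms within a chip are not balanced for the p53 shRNA. Within-chip values of the NFBD1 difference are therefore given for the single pair of each arm that shares the p53 state, which is without the p53 shRNA on the first 2 chips and with it on the other 2; this was chosen after the values were seen. In every pair the 5 Gy array lay in the position next to its 0 Gy partner, always in the same order, so dose and position cannot be told apart in a response, while the NFBD1 difference sets pairs laid out alike against each other. Of 12 osteoblast-lineage markers, 8 were detected on all 24 arrays, among them RUNX2, ALPL and SPP1, whereas COL1A2 and SP7 were detected on none. Of 14 blood cell markers, 2 were detected on all arrays and 5, including PTPRC, on none; 6 of 14 epithelial and 5 of 12 neural markers were detected on all. The log2 of the summed intensity of each of these 4 marker lists overlapped between arms. For the osteoblast list it was 11.69 to 11.9 without and 11.6 to 11.92 with NFBD1 shRNA. For the epithelial list it was 12.49 to 12.89 and 12.22 to 12.89, and for the blood list 9.65 to 10 and 9.82 to 10.09. For the neural list it was 11.22 to 11.58 and 11.18 to 11.59. The precision of all values is limited by the number of arrays.

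The MDC1 transcript itself was lower wherever the NFBD1 shRNA was present. Its log2 intensity was between 8.21 and 9.43 (median 8.89) on the 12 arrays without the hairpin and between 7.04 and 7.92 (median 7.46) on the 12 arrays with it. The arms did not overlap. The difference was -1.40 ± 0.12 (SE; 95% interval -1.65 to -1.16; limma adjusted p = 4.03e-08), a 2.65-fold lower level, and it was 2.46-fold at 0 Gy and 2.85-fold at 5 Gy. Within the chips it was -1.59, -1.56, -1.48 and -0.97. MDC1 stayed detected on all 24 arrays, so transcript remained in the depleted cells. Irradiation gave no call for MDC1 in either arm, and its NFBD1 difference was -0.21 (95% interval -0.61 to 0.18, limma adjusted p = 0.691).

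Irradiation changed transcripts in both arms, and the calls overlapped. Over all 12 pairs limma called 422 genes at a Benjamini-Hochberg adjusted p under 0.05, which is 3.40% of the 12419 tested: 139 rose (1.12%) and 283 fell (2.28%). The 6 pairs without NFBD1 shRNA gave 167 calls (1.34%), of which 60 rose and 107 fell. The 6 pairs with it gave 285 (2.29%), of which 78 rose and 207 fell. The arms shared 107 called genes, all with the same direction, which is 64.1% of the calls without and 37.5% of the calls with NFBD1 shRNA. The number of calls in an arm does not test the difference between arms, and the count with NFBD1 shRNA moved from 285 to between 139 and 447 when pairs were left out in turn. It was 145 without NFBD1 replicate 2, 155 without NFBD1 replicate 3, 166 and 139 without replicates 3 and 2 of the double treatment, and 447 without NFBD1 replicate 1. The count without NFBD1 shRNA was 109 without p53 replicate 2.

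No gene passed the test of the NFBD1 difference itself. limma called 0 of 12419 genes (0%) at an adjusted p under 0.05, with a smallest adjusted p of 0.212. That smallest value depended on the processing and came close to the threshold in some alternatives. It was 0.056 with the authors' processed matrix, 0.0529 with no background correction and 0.0588 with a neqc offset of 50. On leaving out a pair it ran from 0.0574 (without NFBD1 replicate 1) to 0.405 (without NFBD1 replicate 2). With the chip as a block it was 0.442, and unpaired 0.52. With an intensity trend and a robust prior, limma called 6 genes, all lower with NFBD1 shRNA: ABR, CLEC16A, DYRK2, ESYT1, EXOC7 and NCAPD2. The other detected probe of EXOC7 gave an NFBD1 difference of the opposite sign, 0.19. At an unadjusted p under 0.05 there were 1345 genes (10.8%), 914 lower (7.36%) and 431 higher (3.47%) with NFBD1 shRNA; 0.05 of the genes would be 621. The median NFBD1 difference over all genes was -0.01, estimates were negative for 52.5% of genes, and the 95% interval reached a median of 0.27 to either side of the estimate. No gene had an NFBD1 difference above 1 or below -1. The 6 values with NFBD1 shRNA lay wholly above the 6 without for 15 genes (0.121%) and wholly below for 31 (0.250%).

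The genes called over all 12 pairs had similar median responses in the arms. The 139 genes that rose had a median response of 0.35 without and 0.33 with NFBD1 shRNA, and the 283 that fell had -0.30 and -0.35. Of the genes that rose, 12 (8.63%) had an NFBD1 difference at an unadjusted p under 0.05, and of those that fell, 42 (14.8%), against 10.8% of all genes. The called genes were chosen by the mean over both arms, and in this balanced layout the estimate of that mean is independent of the estimated NFBD1 difference. The tests are not independent, because both use the same residual spread of a gene. A small spread favours a small p in either test, so these shares are not free of the choice. The median over the 283 genes that fell ran from -0.41 to -0.23 in the 6 pairs without and from -0.45 to -0.26 in the 6 pairs with NFBD1 shRNA, so the arms overlapped. Across all 12419 genes, which are not independent replicates, the mean responses of the arms had a Pearson correlation of 0.29. Only 3.40% of these genes were called over the 12 pairs, so this value describes mainly genes without a called response.

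**Figure D1:**
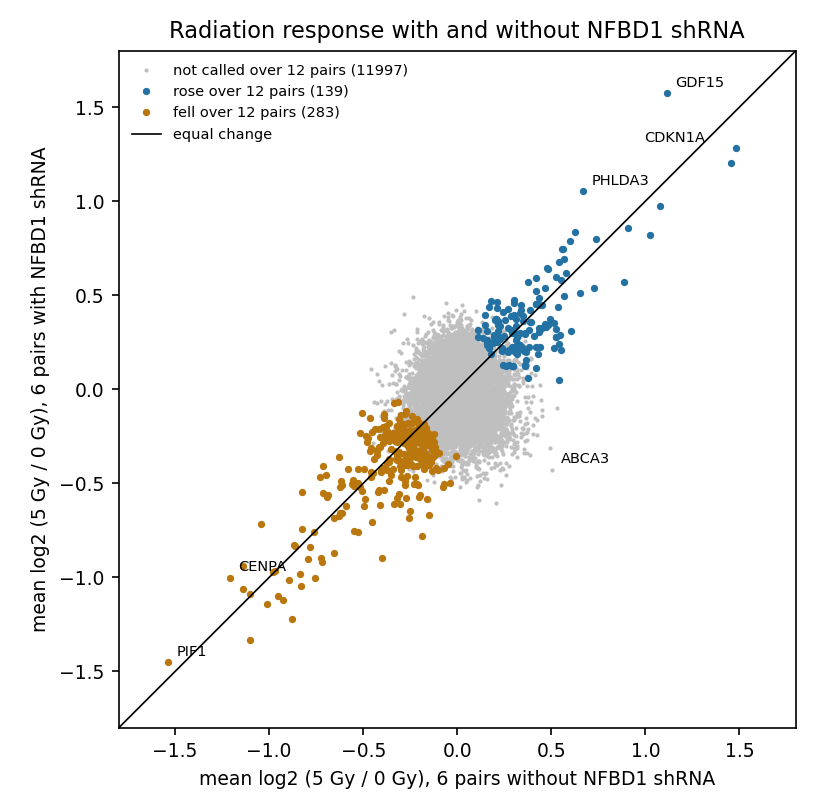
Mean response (log2 of 5 Gy over 0 Gy) of each detected gene in the 6 pairs without NFBD1 shRNA (x axis) and in the 6 pairs with it (y axis); blue points are the 139 genes that rose and orange points the 283 that fell over all 12 pairs. The coloured genes lie along the line of equal change, with GDF15 and PHLDA3 above it, while ABCA3, which is not among them, lies far below it.

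The rises were led by p53 target genes, and they occurred with and without NFBD1 shRNA. Of 63 listed targets 53 were tested. Over the 12 pairs 36 rose and none fell, against a background of 1.12% of genes called as rising. In the arm without NFBD1 shRNA 28 rose (background 0.483%), and in the arm with it 24 (background 0.628%). All lists used here were chosen with earlier results of these data known, so their counts against the background are not independent of these data. The median response of the tested targets was 0.42 without and 0.34 with NFBD1 shRNA. By pair that median ran from 0.15 to 0.65 without (0.41 ± 0.18, SD, n = 6) and from 0.11 to 0.58 with it (0.35 ± 0.17, n = 6). In both arms the 3 pairs that also carried the p53 shRNA were the lowest. The median NFBD1 difference of the list was -0.06 against -0.01 over all genes. An unadjusted p under 0.05 was found for 7 members (13.2%), 5 lower and 2 higher, against 10.8% of all genes.

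CDKN1A, the cyclin-dependent kinase inhibitor p21, was the largest rise. Its response was 1.37, 1.95 and 1.84 with the control shRNA, 0.90, 1.59 and 1.24 with the p53 shRNA, 1.38, 1.32 and 1.88 with the NFBD1 shRNA and 0.68, 1.34 and 1.09 with both. All 12 pairs were positive and the arms overlapped over most of their range. The rise was 2.79-fold without (limma adjusted p = 1.2e-06) and 2.44-fold with NFBD1 shRNA (4.99e-06), and the NFBD1 difference was -0.20 ± 0.16 (SE; 95% interval -0.53 to 0.14, limma adjusted p = 0.672). The other detected probe of CDKN1A gave an NFBD1 difference of 0.27 and a mean response of 1.13, so its probes disagree on the sign. Within chips the printed probe gave 0.01, -0.63, -0.24 and -0.14.

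GDF15, a secreted stress cytokine of the TGF-beta superfamily, had the highest NFBD1 difference of the list, without passing the adjusted test. Its response was 1.46, 1.72 and 1.45 with the control shRNA and 1.85, 2.50 and 1.95 with the NFBD1 shRNA, so these triplets did not overlap. It was 0.28, 0.94 and 0.85 with the p53 shRNA and 0.82, 1.01 and 1.32 with both shRNAs, which did overlap. The NFBD1 difference was 0.46 ± 0.15 (SE; 95% interval 0.14 to 0.77), a 1.37-fold larger change, with a limma p of 0.00727 unadjusted and an adjusted p of 0.333 (limma). At 0 Gy the GDF15 level differed between arms by 0.02, and at 5 Gy by 0.48 (limma adjusted p = 0.145). Within chips the difference was 0.39, 0.78, 0.08 and 0.47. Over whole chips, without regard to the p53 shRNA, it was 0.98, -0.06, -0.18 and 0.78.

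PHLDA3, which encodes a repressor of the AKT kinase, was the other target with a positive NFBD1 difference at an unadjusted p under 0.05. Its response ran from 0.37 to 1.34 (median 0.45) without and from 0.48 to 1.55 (median 1.06) with NFBD1 shRNA, with overlap. The rise was 1.59-fold in the first arm and 2.08-fold in the second, and the NFBD1 difference was 0.39 ± 0.13 (SE; 95% interval 0.10 to 0.67, limma adjusted p = 0.362). The within-chip values were 0.77, 0.21, 0.40 and 0.44, and over whole chips 0.83, -0.32, 0.11 and 0.70.

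MDM2, the ubiquitin ligase that degrades p53, ran from -0.29 to 1.85 (median 0.89) without and from -0.10 to 1.38 (median 0.53) with NFBD1 shRNA. It was called as rising without (1.85-fold, limma adjusted p = 0.00379) and not with NFBD1 shRNA (1.49-fold, 0.0573), but its NFBD1 difference was -0.32 with a 95% interval of -0.76 to 0.13 (limma adjusted p = 0.598), which holds 0.

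The other large rises had NFBD1 differences whose intervals held 0. TP53INP1, a p53-induced nuclear protein of autophagy and cell death, had a mean response of 1.46 without and 1.20 with NFBD1 shRNA and a difference of -0.26 (95% interval -0.84 to 0.32), on a probe detected on 22 arrays. INKA2, an inhibitor of the PAK4 kinase, had 1.08 and 0.98 (difference -0.10, -0.39 to 0.19), and SESN1, a sestrin that restrains mTORC1, had 1.03 and 0.82 (difference -0.21, -0.43 to 0.02). ATF3, a stress transcription factor, had 0.91 and 0.86 (difference -0.05, -0.27 to 0.18). PPM1D, the phosphatase that switches off ATM and p53 signalling, had 0.74 and 0.80 (difference 0.06, -0.20 to 0.32). EDA2R, a receptor of the tumour necrosis factor family, had 0.63 and 0.84 (difference 0.21, -0.29 to 0.71) on a probe detected on 18 arrays. The other probe of TP53INP1 gave -0.56, and the 2 others of INKA2 gave 0.36 and -0.30.

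The 5 listed p53 targets with lower responses at an unadjusted p under 0.05 were named after their values were seen. TNFRSF10B, the TRAIL death receptor DR5, had a mean response of 0.54 without and 0.24 with NFBD1 shRNA (difference -0.30, limma adjusted p = 0.372). CYFIP2, a subunit of the WAVE actin regulator, had 0.51 and 0.22 (difference -0.29, adjusted p = 0.397), and PLXNB2, a semaphorin receptor, had 0.38 and 0.06 (difference -0.32, adjusted p = 0.333). ASCC3, a helicase of alkylation repair, had 0.33 and -0.14 (difference -0.46, adjusted p = 0.305), and ZNF561, a zinc finger gene, had -0.06 and -0.37 (difference -0.31, adjusted p = 0.447). Other detected probes gave -0.07 and 0.24 for TNFRSF10B, -0.29 for CYFIP2, 0.04 for PLXNB2 and -0.07, -0.32 and 0.05 for ASCC3, so the sign held in the other probe of CYFIP2 and not in every probe of the other 3.

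**Figure D2:**
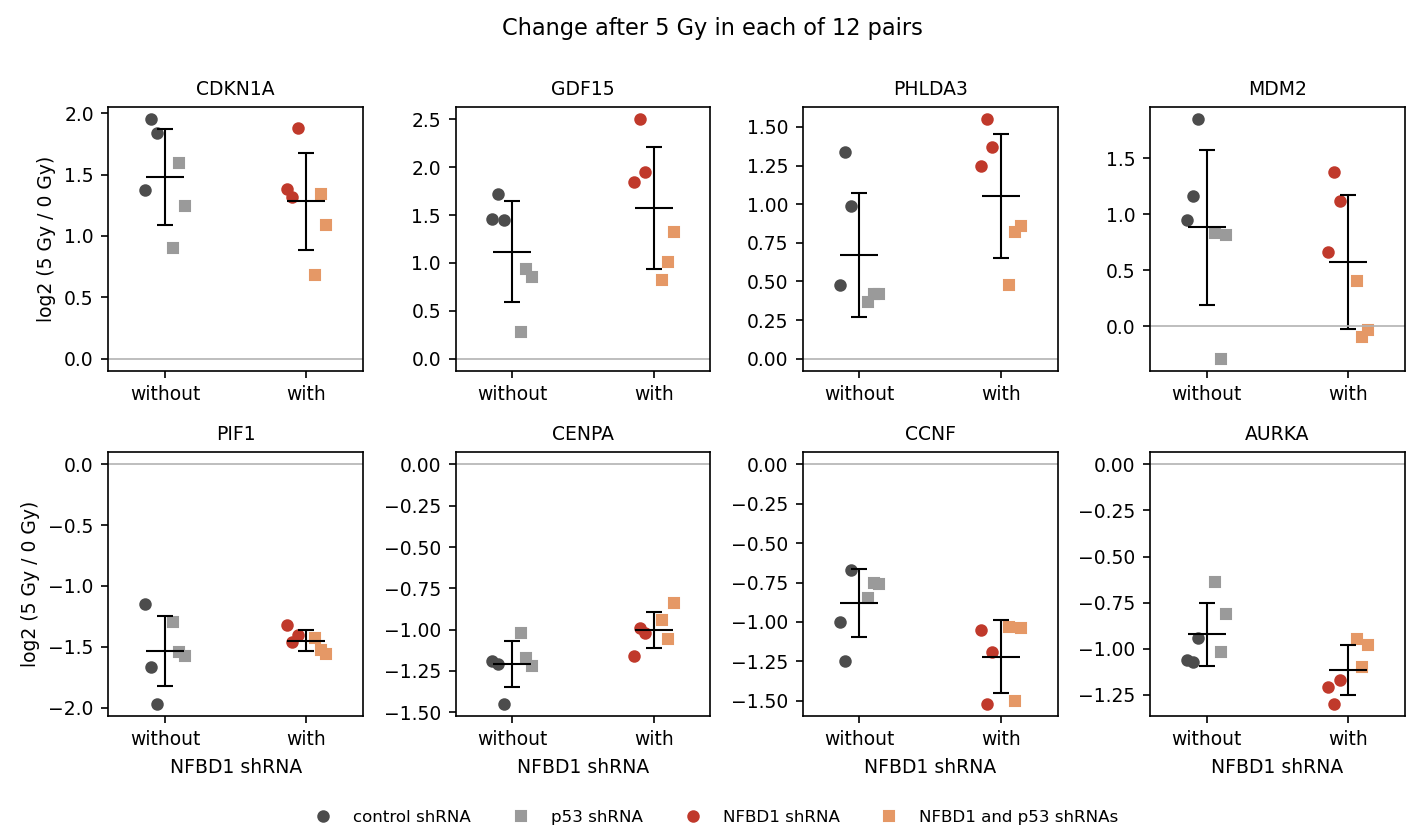
Response to 5 Gy (log2 of 5 Gy over 0 Gy, y axis) in each of the 12 pairs for 4 p53 target genes (upper row) and 4 mitotic genes (lower row), without and with NFBD1 shRNA; bars show the mean and SD of 6 pairs. The arms overlap in all 8 genes shown, and for GDF15 the 3 pairs with NFBD1 shRNA alone (1.85, 1.95 and 2.50) lie above the 3 with control shRNA.

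The falls were led by genes of G2 phase and mitosis. All 71 listed genes were tested; 55 fell and none rose over the 12 pairs, 39 fell without and 43 with NFBD1 shRNA, where the backgrounds of genes called as falling were 2.28%, 0.862% and 1.67%. In a culture of many cells, fewer cells in G2 or mitosis and less transcript per cell cannot be told apart. By pair the median response of the list ran from -0.55 to -0.30 without (-0.43 ± 0.10, SD, n = 6) and from -0.59 to -0.33 with NFBD1 shRNA (-0.48 ± 0.09, n = 6), overlapping almost wholly. The median NFBD1 difference was -0.04, and 11 members (15.5%) had an unadjusted p under 0.05, 8 lower and 3 higher, against 10.8% of all genes.

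Many promoters of cell cycle genes active in G2 and mitosis carry a CHR element, bound by the DREAM and MMB complexes, next to CCAAT boxes bound by NF-Y, and p53 represses such genes through p21 and DREAM. The letters TTTGAA or TTCGAA, the core of a CHR, and CCAAT were searched on both strands (so also as TTCAAA and ATTGG) from 150 bases before to 30 bases after the start of each RefSeq gene (GRCh38.p14). Of 27305 promoters, 9.41% held TTTGAA or TTCGAA and 26.4% held CCAAT, and of the 10100 promoters of detected genes, 6.14% and 28.3% did. Of 230 genes that fell and had a promoter in the table, 72 (31.3%) held the first and 122 (53%) the second. Of 48 such G2/M genes, 33 (68.8%) and 38 (79.2%) did. In the whole G2/M list, fallen or not, 42 (67.7%) and 45 (72.6%) of 62 promoters did. Of the genes that rose and had a promoter there, 6 (5.31%) and 36 (31.9%) did. A match is a run of letters and not a bound site. The promoters of 4 leading falls that held both are printed to show where the letters lie, while that of CENPE, also a leading fall, held neither in this window; they are given as the sense strand of each gene 5′ to 3′, with capitals marking the matches; in CDCA8 a TTTGAA and an ATTGG share letters.
CENPA (chr2:26785906-26786085, plus strand): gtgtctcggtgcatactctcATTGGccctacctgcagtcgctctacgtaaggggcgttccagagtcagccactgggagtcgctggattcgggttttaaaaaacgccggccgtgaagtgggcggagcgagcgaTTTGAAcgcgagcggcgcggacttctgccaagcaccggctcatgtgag
CDCA8 (chr1:37692366-37692545, plus strand): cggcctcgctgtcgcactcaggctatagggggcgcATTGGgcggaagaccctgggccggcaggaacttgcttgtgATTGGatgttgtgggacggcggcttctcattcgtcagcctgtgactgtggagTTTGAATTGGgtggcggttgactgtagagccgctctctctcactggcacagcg
PSRC1 (chr1:109283116-109283295, minus strand): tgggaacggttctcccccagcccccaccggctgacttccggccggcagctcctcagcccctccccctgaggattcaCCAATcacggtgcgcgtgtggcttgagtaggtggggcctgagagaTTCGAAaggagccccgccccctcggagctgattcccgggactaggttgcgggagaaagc
PIF1 (chr15:64825618-64825797, minus strand): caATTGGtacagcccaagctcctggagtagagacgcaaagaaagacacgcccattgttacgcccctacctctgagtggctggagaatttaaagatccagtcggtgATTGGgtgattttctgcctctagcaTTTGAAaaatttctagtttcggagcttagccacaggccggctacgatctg

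PIF1, a DNA helicase of telomeres and G-quadruplexes and the largest fall, ran from -1.97 to -1.15 (median -1.56) without and from -1.56 to -1.32 (median -1.44) with NFBD1 shRNA. The fall was 2.90-fold and 2.73-fold, and the NFBD1 difference was 0.08 (95% interval -0.19 to 0.36, limma adjusted p = 0.845). PSRC1, a spindle protein, ran from -1.21 to -0.93 without and from -1.29 to -0.92 with NFBD1 shRNA, and its difference was 0.01 (-0.20 to 0.23, adjusted p = 0.97). CDCA8, the borealin subunit of the chromosomal passenger complex, ran from -1.20 to -0.78 and from -1.33 to -0.84, with a difference of -0.15 (-0.36 to 0.07, adjusted p = 0.616). The intervals of these 3 genes held 0 and reached no further than 0.36 from it.

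CENPA, the histone H3 variant that marks centromeres, had a positive NFBD1 difference, that is a smaller fall with NFBD1 shRNA. Its response was -1.19, -1.21 and -1.45 with the control shRNA, -1.02, -1.17 and -1.22 with the p53 shRNA, -1.16, -0.99 and -1.02 with the NFBD1 shRNA and -0.94, -1.06 and -0.84 with both. The arms overlapped between -1.16 and -1.02. The fall was 2.31-fold without and 2.00-fold with NFBD1 shRNA, and the NFBD1 difference was 0.21 ± 0.09 (SE; 95% interval 0.01 to 0.41, limma adjusted p = 0.439). The other CENPA probe gave 0.33. CCNB1, the mitotic cyclin B1, and SPC25, a kinetochore subunit of the NDC80 complex, were the other members with a higher response at an unadjusted p under 0.05 and were named after their values were seen. CCNB1 ran from -1.23 to -0.79 without and from -0.89 to -0.55 with NFBD1 shRNA (difference 0.32, 95% interval 0.10 to 0.54, adjusted p = 0.333). SPC25 had a mean response of -0.19 and 0.07 (difference 0.26, adjusted p = 0.439), and its other probe gave -0.21.

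CCNF, the F-box cyclin of a ubiquitin ligase, was the one gene among the 10 largest falls with a negative NFBD1 difference at an unadjusted p under 0.05. Its response ran from -1.25 to -0.67 (median -0.80) without and from -1.52 to -1.03 (median -1.12) with NFBD1 shRNA, with overlap. The fall was 1.84-fold and 2.33-fold, and the NFBD1 difference was -0.34 ± 0.13 (SE; 95% interval -0.61 to -0.07, limma adjusted p = 0.373). BUB1B, the spindle checkpoint kinase BUBR1 and named after its values were seen, had the most negative NFBD1 difference of the list, -0.59 (95% interval -1.11 to -0.07, adjusted p = 0.415), but its pairs spread widely, from -0.84 to 0.52 without and from -1.32 to -0.04 with NFBD1 shRNA. The remaining leading falls lay between these. AURKA, the spindle pole kinase Aurora A, had a mean response of -0.92 without and -1.12 with NFBD1 shRNA (difference -0.20, -0.39 to 0.00), and BORA, its activator towards PLK1, had -1.14 and -1.06 (difference 0.07, -0.18 to 0.33). CENPE, the kinetochore kinesin, had -1.01 and -1.14 (difference -0.13, -0.41 to 0.16). TNFAIP8L1, a relative of the lipid-binding protein TNFAIP8 and on no list here, had -1.10 and -1.33 (difference -0.23, -0.48 to 0.02). FAM83D, which brings casein kinase to the spindle, had -1.14 and -0.94 (difference 0.20, -0.01 to 0.41). The FAM83D level was lower with NFBD1 shRNA at both doses, with differences of -0.94 at 0 Gy (limma adjusted p = 1.69e-06) and -0.73 at 5 Gy (3.67e-05), so its fall started from a lower level.

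**Figure D3:**
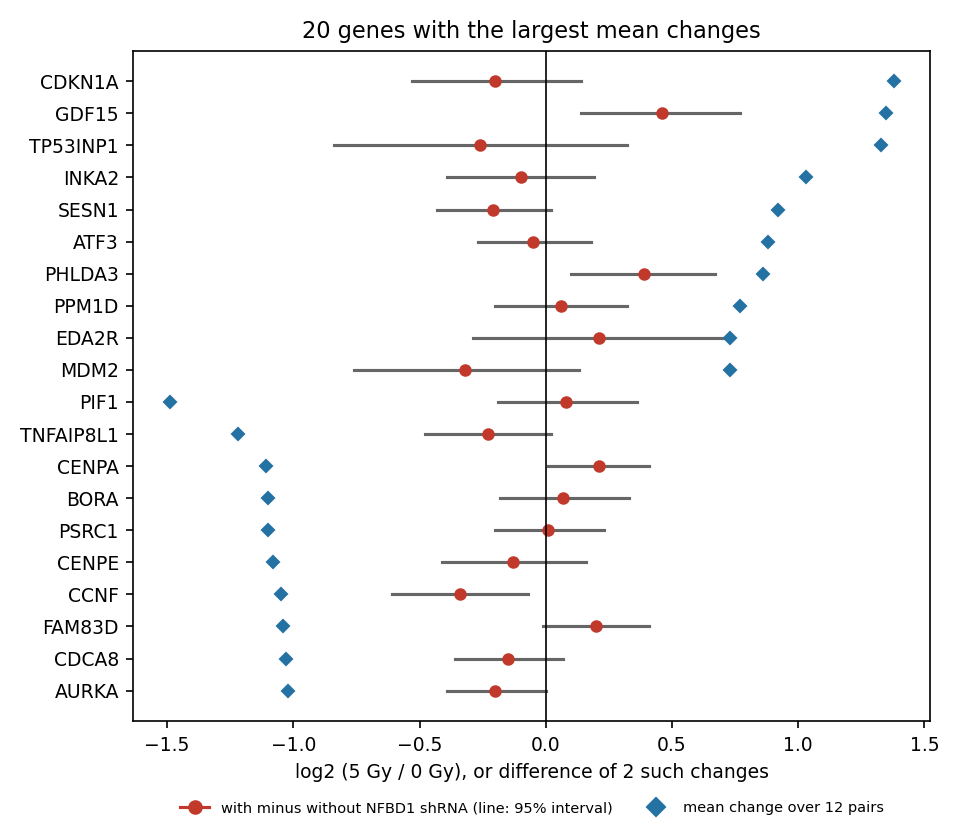
NFBD1 difference (red points, with 95% intervals as lines) beside the mean response over 12 pairs (blue diamonds) on a log2 scale for the 10 largest rises and the 10 largest falls. The mean responses run from -1.49 to 1.38, and the NFBD1 differences from -0.34 to 0.46, with intervals that exclude 0 before adjustment for GDF15, PHLDA3, CENPA and CCNF and adjusted p-values of at least 0.333.

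The 10 genes with the smallest p for the NFBD1 difference all had estimates below 0, and none of them was called over the 12 pairs. They were PTGR3, ABR, ABCA3, ADAMTS9, NCAPD2, RUSC2, DYRK2, ESYT1, TMEM63A and CLEC16A, each with a limma adjusted p of 0.212. The probe of ADAMTS9, an extracellular protease, was detected on 8 arrays and on none of 4 groups, so no size is given for it. The other 9 had NFBD1 differences from -0.93 to -0.52. In 6 of these 9 the 6 pairs with NFBD1 shRNA lay wholly below the 6 without, against 0.250% of all genes, and a small p favours such separation. In each of the 9 the mean response was positive without and negative with NFBD1 shRNA, and the sign of the difference was the same on all 4 chips. The choice of these genes by p in the same 12 pairs favours both traits, so neither is independent of that choice.

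PTGR3, a reductase of prostaglandins, had the smallest p. Its response was -0.10, -0.25 and 0.13 with the control shRNA, 0.47, 0.21 and 0.25 with the p53 shRNA, -0.81, -0.56 and -0.42 with the NFBD1 shRNA and -0.31, -0.43 and -0.39 with both. Every pair with NFBD1 shRNA was negative, and the gap to the lowest pair without it was narrow, from -0.31 to -0.25. The NFBD1 difference was -0.61 ± 0.10 (SE; 95% interval -0.83 to -0.38, limma adjusted p = 0.212, unadjusted 3.49e-05). In the arm with NFBD1 shRNA PTGR3 fell 1.4-fold (adjusted p = 0.00165). Within chips the difference was -0.71, -0.31, -0.64 and -0.64.

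ABCA3, a lipid transporter known from lung surfactant, had the most negative of these differences. Its response was 0.23, 0.60 and 0.66 with the control shRNA, 0.24, 0.76 and 0.54 with the p53 shRNA, -0.10, -0.53 and -0.81 with the NFBD1 shRNA and 0.11, -0.96 and -0.28 with both. The highest pair with NFBD1 shRNA (0.11) lay below the lowest without (0.23). The NFBD1 difference was -0.93 ± 0.17 (SE; 95% interval -1.30 to -0.56), a 1.91-fold change, and neither arm's own response passed the adjusted threshold (0.0614 without and 0.084 with NFBD1 shRNA). The gene is dim, with mean log2 levels between 5.44 and 6 in the arms at either dose, and its probe was detected on 23 arrays. Within chips the difference was -0.33, -1.13, -1.72 and -0.82.

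ABR, a regulator of small GTPases, ran from -0.07 to 0.44 (median 0.25) without and from -0.83 to -0.12 (median -0.35) with NFBD1 shRNA, without overlap. Its NFBD1 difference was -0.66 ± 0.12 (SE; 95% interval -0.92 to -0.41). Its other detected probe gave 0.02, so the probes of this gene disagree. NCAPD2, a subunit of the condensin complex that compacts mitotic chromosomes, was the only member of the G2/M list whose arms did not overlap: -0.10 to 0.24 without and -0.58 to -0.19 with NFBD1 shRNA. Its NFBD1 difference was -0.52 ± 0.10 (SE; -0.74 to -0.31), and it fell 1.34-fold with NFBD1 shRNA (limma adjusted p = 0.00371). NCAPD2 had no other detected probe.

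RUSC2, a Rab GTPase effector, ran from 0.10 to 0.77 without and from -0.89 to 0.06 with NFBD1 shRNA (difference -0.81, 95% interval -1.14 to -0.47). It rose 1.41-fold without NFBD1 shRNA (limma adjusted p = 0.0379). TMEM63A, a mechanically gated ion channel, ran from 0.00 to 0.40 without and from -0.96 to -0.15 with NFBD1 shRNA (difference -0.65, -0.94 to -0.37) on a probe detected on 22 arrays. Arms overlapped for the last 3 genes. DYRK2, a kinase that phosphorylates p53 after DNA damage, had -0.14 to 0.53 and -0.79 to 0.04 (difference -0.58, -0.82 to -0.34), and its 3 other detected probes gave -0.15, -0.14 and 0.07. ESYT1, a tether between the endoplasmic reticulum and the plasma membrane, had 0.03 to 0.55 and -0.59 to 0.03 (difference -0.64, -0.91 to -0.37). CLEC16A, a regulator of mitophagy, had -0.15 to 0.65 and -0.81 to -0.11 (difference -0.74, -1.06 to -0.42).

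In each of the 9 genes the level estimates of the arms differed in opposite directions at 0 and 5 Gy. With minus without NFBD1 shRNA, the level difference at 0 Gy ran from 0.08 (ABR) to 0.40 (TMEM63A), and at 5 Gy from -0.59 (ABR) to -0.21 (DYRK2). At 0 Gy limma called 1 of the 9, DYRK2 (0.38, adjusted p = 0.0479). At 5 Gy it called ABR (-0.59, adjusted p = 0.00317), ABCA3 (-0.56, 0.0145) and ESYT1 (-0.47, 0.0133). Both doses enter the NFBD1 difference, so these values are not independent of it.

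**Figure D4:**
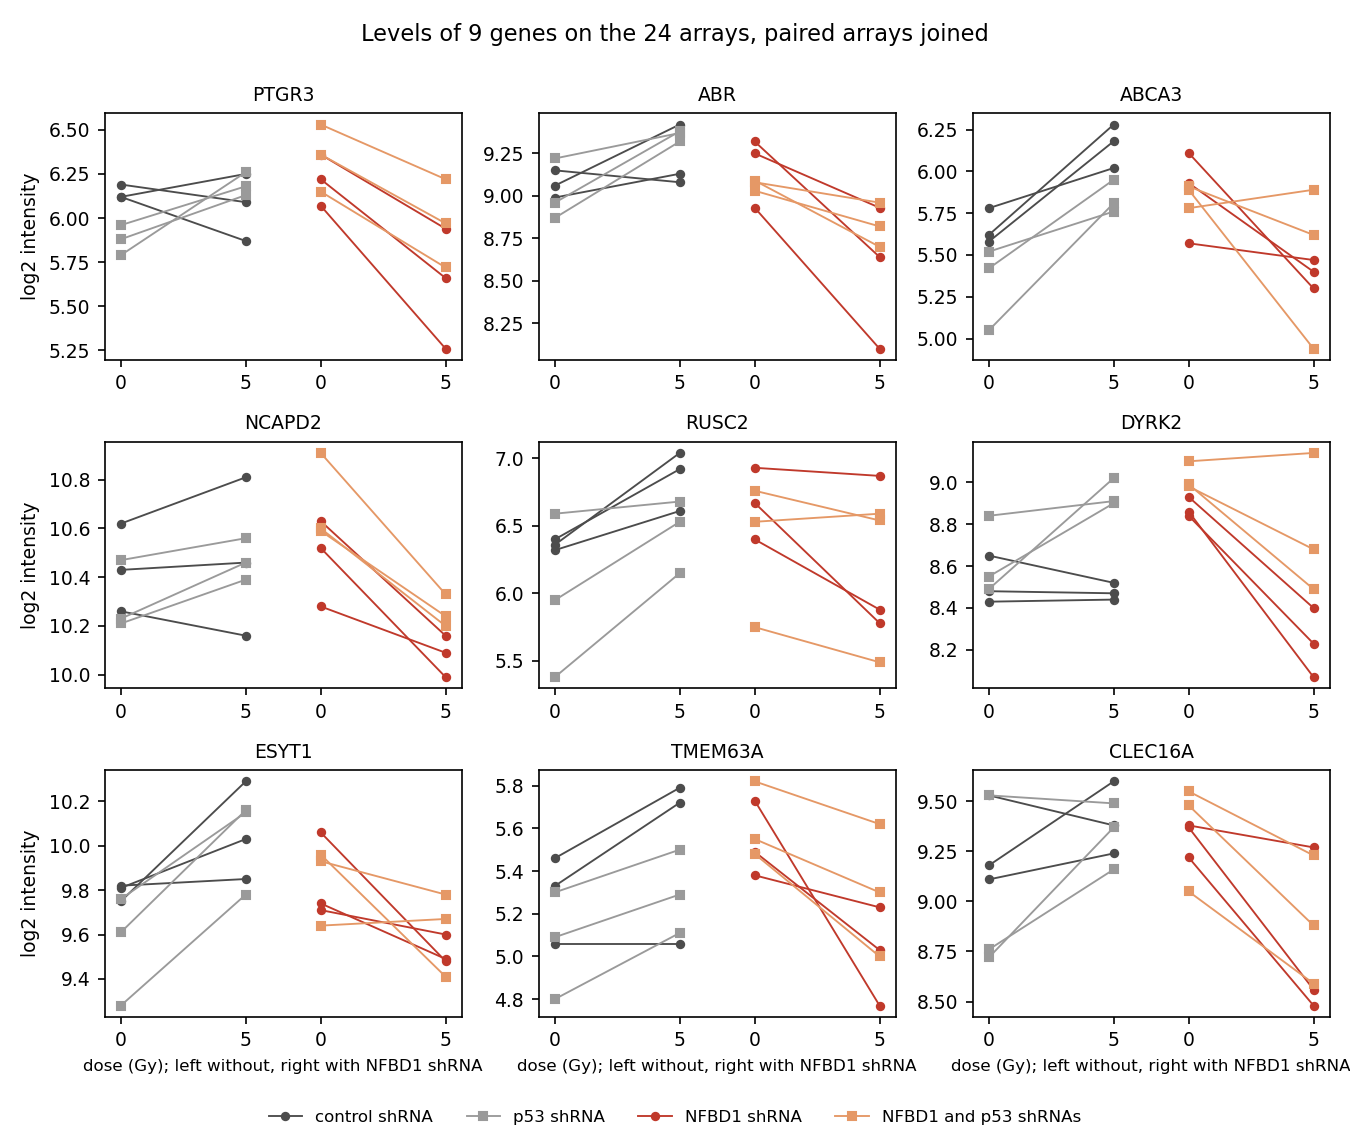
Log2 intensity of the 9 genes with the smallest p for the NFBD1 difference and a probe detected in most arrays, on each of 24 arrays; lines join the 0 Gy and 5 Gy arrays of a pair, with pairs without NFBD1 shRNA on the left of each panel and with it on the right. Most lines slope up on the left and down on the right, and for ABCA3 all 6 lines on the left slope up while 5 of the 6 on the right slope down.

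No gene passed a test of the NFBD1 difference within a p53 state or between the states. Between the NFBD1 and control shRNA pairs limma called 0 of 12419 genes (839, or 6.76%, at an unadjusted p under 0.05). Between the pairs with both shRNAs and those with the p53 shRNA it called 0 (720, 5.80%). The test of whether the NFBD1 difference itself differed with the p53 shRNA also called 0 (401, 3.23%), with an adjusted p of 1 for each gene named here. The median NFBD1 difference over the p53 target list was -0.07 without and -0.06 with the p53 shRNA.

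Without the p53 shRNA the smallest p-values belonged to UBAP2L, TMEM131 and SKIC3. UBAP2L, a core protein of stress granules, changed by 0.24, 0.69 and 0.75 with the control shRNA and by -0.32, -0.44 and -0.53 with the NFBD1 shRNA. Those triplets lay on opposite sides of 0. Its NFBD1 difference was -0.99 (95% interval -1.33 to -0.64, limma adjusted p = 0.287), against -0.01 in p53-depleted cells, where the 6 values ran from -0.19 to 0.15. Without control replicate 1 limma called UBAP2L alone in this comparison, at -1.15. TMEM131, which takes part in collagen secretion, had -0.89 without and -0.14 with the p53 shRNA, and SKIC3, a scaffold of the superkiller RNA decay complex, had -1.13 and 0.02. With the p53 shRNA the smallest p-values belonged to CNGA3, KLHL21 and PTGR3. CNGA3, a cyclic nucleotide-gated channel of cone photoreceptors, had -0.97 with and -0.02 without the p53 shRNA on a probe detected on 20 arrays. KLHL21, a cullin adaptor of cytokinesis, had -0.84 and -0.20. For the difference between the p53 states the smallest p-values belonged to ZFP28, CRYBG3 and UBAP2L. ZFP28 was undetected in 3 groups and gets no size, and CRYBG3 had -0.50 without and 0.58 with the p53 shRNA on a probe detected on 21 arrays.

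Genes of DNA replication and the G1/S transition changed little with radiation, and 1 of 43 tested members was called. PCNA, the sliding clamp of DNA polymerases and also a p53 target, rose over the 12 pairs by 0.33 (limma adjusted p = 0.00288). Its response ran from 0.00 to 0.47 (median 0.14) without and from 0.10 to 0.70 (median 0.50) with NFBD1 shRNA, and its NFBD1 difference was 0.29 (95% interval 0.05 to 0.54, adjusted p = 0.39). An unadjusted p under 0.05 for the NFBD1 difference was found for 11.6% of the members, against 10.8% of all genes. Among these members PCNA was the only one with a higher response. The 4 with a lower one, of which all but UHRF1 were named after their values were seen, were POLA1, the catalytic subunit of DNA polymerase alpha (-0.41, 95% interval -0.61 to -0.20, adjusted p = 0.254), POLE, that of polymerase epsilon (-0.36, 0.439), MCM4 of the replicative helicase (-0.25, 0.439) and the methylation maintenance factor UHRF1 (-0.32, 0.417). POLA1 ran from 0.14 to 0.45 without and from -0.41 to 0.03 with NFBD1 shRNA, without overlap. Other detected probes gave -0.08 for POLA1, -0.01 for MCM4, -0.14 for UHRF1 and 0.26 and 0.05 for PCNA, and the mean responses of those PCNA probes were -0.03 and 0.09, so they did not share its rise. The transcription factor E2F2 had -0.30, the polymerase subunit POLA2 -0.04, the origin licensing factors CDC6 and MCM10 0.09 and 0.17, the histone mRNA binder SLBP 0.12 and the ligase LIG1 -0.01, all with intervals that held 0. The list's median NFBD1 difference was -0.03.

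Among 38 tested genes of damage foci and checkpoint signalling, the neighbours of NFBD1 in its own pathway, 4 fell over the 12 pairs and none rose. They were WEE1, the kinase that holds CDK1 inactive (-0.48, limma adjusted p = 1.82e-05), its opponents CDC25C (-0.45) and CDC25B (-0.25), and H2AX, the histone that NFBD1 reads (-0.20, adjusted p = 0.0424). The call of H2AX was lost in 9 of 12 fits that left out a pair (adjusted p up to 0.115). Of all genes, 2.28% fell and 1.12% rose. Their NFBD1 differences were -0.12, 0.02, 0.05 and -0.06, with intervals that held 0. WEE1 ran from -0.56 to -0.25 without and from -0.85 to -0.32 with NFBD1 shRNA. Of genes named after their values were seen, CHEK2, the checkpoint kinase downstream of ATM, had 0.31 (adjusted p = 0.427), and its other detected probe gave 0.05. TP53BP1, which encodes the foci protein 53BP1, had -0.42 (95% interval -0.79 to -0.04, adjusted p = 0.424), and its partner RIF1 and the SUMO ligase PIAS4 had -0.28 (0.37) and -0.20 (0.449). CSNK2A1, the catalytic subunit of the kinase that prepares NFBD1 for binding the MRE11 complex, had -0.24 (-0.52 to 0.04). The deubiquitinase USP28, which binds 53BP1, had -0.22 on a probe detected on 17 arrays, and the chromatin reader L3MBTL1 had -0.01. The list's median NFBD1 difference was 0.00, and 10.5% of its members had an unadjusted p under 0.05, against 10.8% of all genes.

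Genes of double-strand break and Fanconi repair gave no call among 29 tested, neither for radiation nor for NFBD1, and the median NFBD1 difference was -0.11. An unadjusted p under 0.05 for that difference was found for 13.8% of them, against 10.8% of all genes. SLX4, a scaffold of structure-specific nucleases, had mean responses of 0.05 without and -0.43 with NFBD1 shRNA (difference -0.47, 95% interval -0.80 to -0.15, limma adjusted p = 0.333). After their values were seen, PARP1, the poly-ADP-ribose polymerase (-0.22, 0.439), and POLQ, the polymerase of end joining by microhomology (-0.31, 0.417), were added as the other members with a lower response at an unadjusted p under 0.05. The end-joining kinase PRKDC had -0.32, the nuclease EXO1 -0.15, FANCC and FANCL of the Fanconi core complex -0.11 and 0.08 and the end-joining factor NHEJ1 -0.09, and their intervals held 0.

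Replication-dependent histone genes fell with radiation in part. Of 30 tested members 6 fell and none rose over the 12 pairs, where 2.28% of all genes fell. On leaving out a pair the call was lost in 10 of 12 fits for H2BC21, 8 for H2BC4 and 1 for H2BC7. The list's median response was -0.19 without and -0.07 with NFBD1 shRNA. By pair the median ran from -0.32 to -0.05 without (-0.20 ± 0.11, SD, n = 6) and from -0.20 to 0.11 with NFBD1 shRNA (-0.07 ± 0.14, n = 6). The arms overlapped between -0.20 and -0.05. The estimate was below 0 for 6 members (20%), and the median NFBD1 difference was 0.15 against -0.01 over all genes. An unadjusted p under 0.05 was found for 3 members (10%), against 10.8% of all genes. The 6 that fell had NFBD1 differences of 0.22 (H2AC6, 95% interval -0.01 to 0.45), 0.29 (H3C4), 0.31 (H2BC7), 0.18 (H2BC21), 0.11 (H2BC4) and 0.01 (H3C10). H2BC7, H4C2 (0.30, limma adjusted p = 0.372) and H2BC11 (0.25) were the 3 below the unadjusted threshold. Genes of this family are near-identical copies, so a probe may read several of them, and their values are not independent. H2BC7, H2BC11, H2BC21, H3C10 and H4C2 were named after their values were seen.

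Genes of the extracellular matrix and TGF-beta signalling had mostly negative NFBD1 differences. Of 29 tested members 24 (82.8%) were negative, against 52.5% of all genes, the median was -0.10, and 6 (20.7%) had a lower and none a higher response at an unadjusted p under 0.05, against 7.36% and 3.47% of all genes. By pair the list's median response ran from -0.07 to 0.09 without and from -0.23 to 0.05 with NFBD1 shRNA. The 3 pairs with NFBD1 shRNA alone, at -0.16, -0.11 and -0.23, were the lowest of the 12. Over whole chips, without regard to the p53 shRNA, the list's median NFBD1 difference was -0.17, 0.03, -0.13 and -0.34. The 6 genes, named after their values were seen, were COL5A1, a chain of fibrillar collagen V (-0.59, 95% interval -0.87 to -0.30, limma adjusted p = 0.243), the integrin subunits ITGA5 (-0.37), ITGAV (-0.28) and ITGB1 (-0.27), the laminin chain LAMC1 (-0.30) and the matrix protein thrombospondin THBS1 (-0.31). In that order their genomic spans, introns included, were 203, 24, 90.8, 57.9, 122 and 18.4 kb. The median over all genes was 28.7 kb, and longer genes had lower NFBD1 differences in general, as given below. The part of span in this list was not tested. COL5A1 ran from -0.05 to 0.64 (median 0.41) without and from -0.46 to 0.02 (median -0.32) with NFBD1 shRNA, with overlap. Its level differed between arms by -0.08 at 0 Gy and by -0.66 at 5 Gy (limma adjusted p = 0.00385). The 2 other detected probes of ITGB1 gave NFBD1 differences of -0.16 and 0.10. SMAD3, a transducer of TGF-beta signals, fell over the 12 pairs by 0.32 on the log2 scale with an NFBD1 difference of -0.17 (-0.42 to 0.08). CCN2, a matricellular growth factor whose call was lost in 6 of 12 fits that left out a pair (adjusted p up to 0.0688), fell by 0.28 with -0.19, and ACTA2, a smooth muscle actin and p53 target, rose by 0.45 with 0.01.

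**Figure D5:**
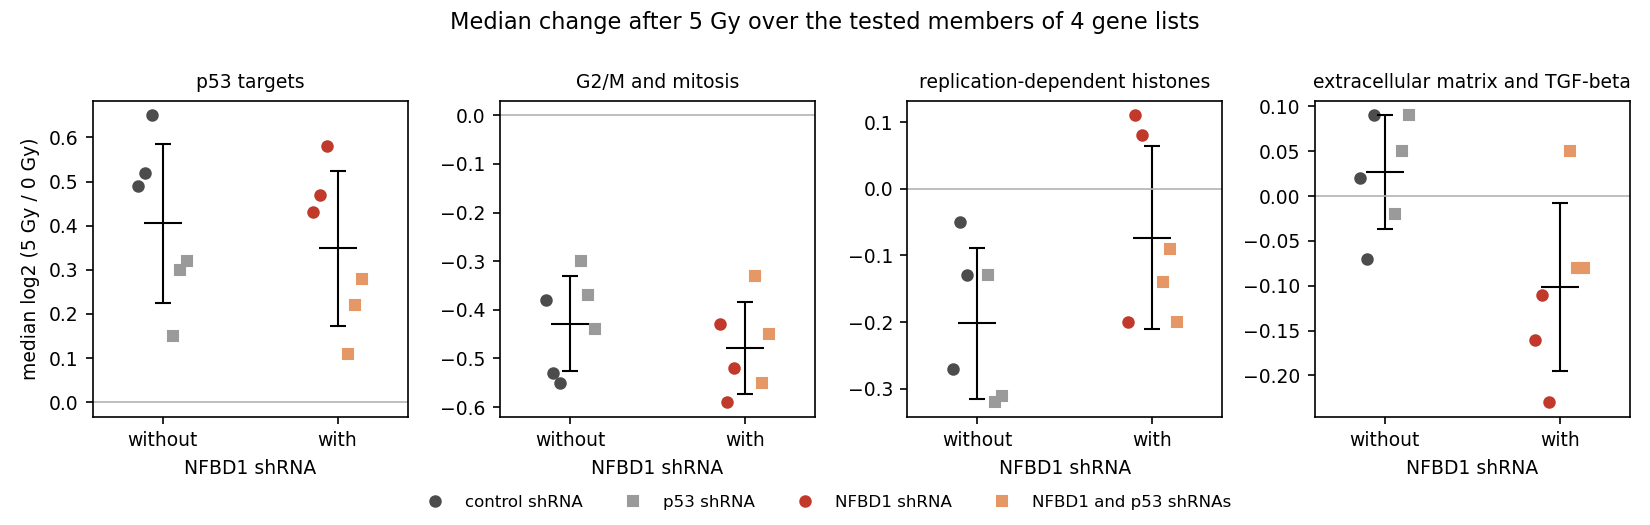
Median response (log2 of 5 Gy over 0 Gy, y axis) over the tested members of 4 gene lists in each of the 12 pairs, without and with NFBD1 shRNA; bars show the mean and SD of 6 pairs. The arms overlap in all 4 lists, with means of 0.41 and 0.35 for p53 targets, -0.43 and -0.48 for G2/M genes, -0.20 and -0.07 for histones and 0.03 and -0.10 for matrix genes.

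The inflammatory and stress lists held few calls, where 1.12% of all genes rose and 2.28% fell. Among 35 tested interferon response genes the median NFBD1 difference was 0.00. IRF1, a transcription factor of that response, rose over the 12 pairs by 0.32 with an NFBD1 difference of 0.22 (95% interval -0.08 to 0.52), the peptide transporter TAP1 rose by 0.28 with -0.17, the proteasome subunit PSMB9 rose by 0.19 with 0.17, and the translation inhibitor IFIT1 fell by 0.45 with 0.00. PSMB9 and, in the next list, NFKBIE were named after their values were seen, and on leaving out a pair their calls were lost in 10 and 11 of 12 fits (adjusted p up to 0.13 and 0.113). Of others named in the same way, the RNA sensor OAS1 had an NFBD1 difference of 0.28, DDX60 -0.34 and SAMD9 -0.23. Of 18 NF-kB and inflammatory genes none had an unadjusted p under 0.05 and the median was 0.01. The chemokine CCL2 (0.28), the NF-kB subunit RELB (0.30) and the inhibitor NFKBIE (0.21) rose, with NFBD1 differences of 0.13, 0.01 and -0.16. The cytokine IL6 was not called, at 0.26 over the 12 pairs and an NFBD1 difference of 0.14.

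Of 20 immediate early genes 3 fell and none rose over the 12 pairs, FOS (-0.46), KLF10 (-0.28) and CCN2, against 2.28% of all genes. FOS had an NFBD1 difference of 0.07, KLF10 of 0.09 and IER2, which was not called, of -0.06, and the list's median was -0.02. EGR1, an early growth response factor named after its values were seen, had mean responses of 0.00 without and -0.37 with NFBD1 shRNA (difference -0.37, 95% interval -0.60 to -0.14, limma adjusted p = 0.305). Of 23 apoptosis regulators the BH3 gene BIK rose (0.30; NFBD1 difference 0.06), a call lost in 8 of 12 fits that left out a pair, the survival gene MCL1, named after its values were seen, had a difference of 0.31 (adjusted p = 0.37; its other probe gave -0.25), and BCL2 and the cytochrome CYCS had -0.09 and -0.11; the list's median was 0.06. Among 34 genes of endoplasmic reticulum stress and the amino acid response, with a median of 0.03, SESN2 rose by 0.56 with an NFBD1 difference of 0.07 and NUPR1 rose by 0.31 with -0.24. The glutathione-degrading enzyme CHAC1 was not called and had 0.35 (-0.13 to 0.82). Of genes named after their values were seen, the stress factor DDIT3 had 0.35 (adjusted p = 0.333), the initiation factor EIF2S1 -0.20 from levels already lower with NFBD1 shRNA at 0 Gy (-1.03, adjusted p = 4.43e-05), the AP-1 repressor JDP2 -0.49 and the amino acid transporter SLC7A5 -0.39. Of 17 cholesterol synthesis genes none was called and the median was -0.02, with STARD4 at -0.23, FDPS at 0.12, HMGCS1 at -0.09 and LSS, named after its values were seen, at -0.41 (adjusted p = 0.305). The other detected probe of LSS gave -0.04. Of 16 housekeeping genes none was called for radiation, the median was -0.03, GUSB, HPRT1 and B2M had 0.04, -0.05 and 0.03, and the transferrin receptor TFRC, named after its values were seen, had -0.30 (adjusted p = 0.333). The marker lists had medians of 0.06 (osteoblast lineage), 0.10 (epithelial, with ELF3, seen to be its only member under an unadjusted p of 0.05, at 0.38), -0.09 (blood) and 0.05 (neural), on 9, 8, 7 and 9 tested genes.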

How the data were processed

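Per the file headers, the authors deposited one table of bead intensity per probe, not background-subtracted or normalized, and, array by array, detection p-values. They also deposited a matrix of processed log2 values, whose normalization is not given in the sources used here and which served as an alternative. The labels describe amplified, biotin-labelled RNA on Illumina bead arrays. With limma 3.58.1 in R 4.3.3, the 24 arrays were background-corrected and quantile-normalized (neqc, offset 16). Of 48802 probes, 21568 with a detection p under 0.01 on at least 3 arrays were kept, and the probe with the highest mean stood for each of 12419 genes. A gene symbol was given for 27577 probes, several symbols for 13 and none for 21212; 27540 matched a RefSeq gene. A linear model of the 12 pair differences held terms for NFBD1 shRNA and p53 shRNA (9 residual degrees of freedom); the comparisons by p53 state used 1 mean per shRNA treatment (8 degrees of freedom). P-values were moderated and adjusted by Benjamini-Hochberg over all genes, with a threshold of 0.05.

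Deviations of the 0 and 5 Gy arrays of a pair from their group means correlated at 0.09 to 0.63, above 0.1 in 11 of 12 pairs, and each pair shared a chip, so pairs were used as differences. No 2 arrays held identical values. Named genes were MDC1, the 10 smallest p-values of the NFBD1 difference, 3 for each other comparison, the 10 largest rises and falls, and 8 or 3 members of each list by mean response, besides those named after their values were seen. Members and lists were chosen with earlier results of these data known. The transcript of p53 itself and some members of the repair list are not reported here. Alternatives changed the background correction, detection filter, probe summary, model, chip block and arrays left out. The 60 bead columns, the 6 later arrays and their 6 detection columns were not used.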

Additional observations from a re-analysis of the deposited data

Results flagged for a closer look

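Each arm of 6 pairs was searched for a pair far from the other 5 in the response of each named gene. Of 264 such searches 13 found one, and chance gives about 1 in 20 by this measure. In the pairs without NFBD1 shRNA, the response of H2AX was -0.39 in control replicate 2, where the other 5 pairs ran from -0.16 to -0.09. IL6 was 0.58 in the same pair (others -0.02 to 0.18). TP53BP1 was -0.67 in control replicate 1 (others 0.23 to 0.54), so the one pair lay opposite in sign to the rest of its arm. ELF3 was -0.56 in control replicate 3 (others -0.15 to 0.03). With the p53 shRNA, replicate 1 stood apart for TNFRSF10B at 0.04 (others 0.51 to 0.76) and for POLA1 at 0.45 (others 0.14 to 0.20), and replicate 2 for H2BC4 at -1.06 (others -0.45 to -0.11).

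In the pairs with NFBD1 shRNA, replicate 1 of the NFBD1 shRNA alone was apart for ITGB1 at -0.65 (others -0.26 to -0.05) and replicate 2 for H3C10 at -0.83 (others -0.37 to -0.10). Replicate 1 of the double treatment was apart for OAS1 at -0.21 (others 0.28 to 0.42), DDIT3 at -0.14 (others 0.41 to 0.48) and TFRC at 0.20 (others -0.33 to -0.13), and its replicate 3 for H3C4 at 0.25 (others -0.50 to -0.24).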

How the results depend on the processing

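The count of genes called for the NFBD1 difference was 0 when each pair was left out in turn and under the other alternatives, except 6 with an intensity trend and robust prior and 2 (ABCA3 and KCND3) within chip 3, where the arm with NFBD1 shRNA is a single pair that also carries the p53 shRNA and is assumed to vary like the other arm. With the replicate block it was 0 (1382 genes had p under 0.05 unadjusted), and with no pairing of the 24 arrays also 0 (702 such genes). Responses of same-numbered pairs were compared across shRNA treatments as deviations from their treatment means. Median correlations were -0.04, -0.02 and 0.02 for replicates 1, 2 and 3, with a highest value of 0.36. Levels did shift with replicate number, as given above for IL6. Within cells without the p53 shRNA the count was 3 with no background correction, 2 with offset 50, 3 with the trend, 1 with array weights and 0 to 1 on leaving out a pair; with the p53 shRNA and for the difference between p53 states it was 0 to 0 on leaving out a pair. The 285 calls with NFBD1 shRNA became 514 with the authors' matrix, 455 with no background correction, 491 with offset 50, 433 on probes detected on all 24 arrays, 174 with the chip as a block, 134 unpaired, 450 with the trend, 635 with array weights and 139 to 447 on leaving out a pair. The 167 calls without NFBD1 shRNA became 95 unpaired and 109 to 188 on leaving out a pair, and the 422 over all pairs 224 unpaired and 308 to 437. The MDC1 level difference ranged from -1.5 to -1.32 on leaving out a pair, was -0.94 with the authors' matrix and -1.25 with no background correction or offset 50, and ran from -1.59 to -0.97 within chips. With the mean over probes the NFBD1 difference of CDKN1A changed sign, from -0.20 to 0.04. Several NFBD1 differences near 0 also changed sign. With the authors' matrix ATF3 moved to 0.03 and ACTA2 to -0.01. With the chip block H2AX moved to 0.01, IFIT1 to -0.03 and ACTA2 to -0.09. With array weights CDC25C moved to -0.02, IFIT1 to -0.02, RELB to -0.05 and H3C10 to -0.03. On leaving out a pair the NFBD1 difference crossed 0 for ACTA2 (-0.08 to 0.12), ATF3 (-0.09 to 0.01), BCL2 (-0.15 to 0.01), BIK (-0.04 to 0.15), CDC25B (0.00 to 0.11), CDC25C (-0.04 to 0.07), CRYBG3 (-0.04 to 0.16), FOS (-0.04 to 0.20), H2BC4 (0.00 to 0.22), H3C10 (-0.04 to 0.10), IFIT1 (-0.07 to 0.10), PIF1 (-0.01 to 0.17), POLA2 (-0.08 to 0.01), PPM1D (-0.01 to 0.12), PSRC1 (-0.02 to 0.06), RELB (-0.07 to 0.06) and SESN2 (0.00 to 0.16). The cause of these changes was not tested. The number of arrays limits precision, and dim genes lie close to the background.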

Other observations

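Genes with a lower response in NFBD1-depleted cells spanned more of the genome than genes with a higher one. This was seen in the data and is given as a description, with no test. The 914 genes with a lower response at an unadjusted p under 0.05 had a median genomic span, introns included, of 52.6 kb in RefSeq, against 16.2 kb for the 431 with a higher response and 28.7 kb for all 12410 genes with a known span. Of 2270 genes longer than 100 kb, 12.2% were in the lower group and 2.47% in the higher one. Of 2867 genes shorter than 10 kb, 2.51% and 5.48% were. The median NFBD1 difference was -0.07 for the long, -0.02 for the 7273 of intermediate span and 0.05 for the short genes, and the median log2 level was 6.80, 7.64 and 7.43.

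By pair, the median response of long genes minus that of short genes was -0.09 to 0.10 without NFBD1 shRNA (0.03 ± 0.07, SD, n = 6) and -0.18 to 0.05 with it (-0.08 ± 0.08, n = 6), so the arms overlapped. Within chips, with minus without NFBD1 shRNA, it was -0.14, 0.06, -0.18 and -0.18, with arms that are not balanced for the p53 shRNA within a chip. Long genes were also dimmer than short ones on these arrays, and the part of intensity in this pattern was not tested.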
